A study of Mus musculus with 8 samples.

Results

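Mta2 and Mbd3, both subunits of the NuRD complex, were compared peak by peak in mouse kidney cortex. A pair was a Mta2 peak and a Mbd3 peak that shared at least 1 bp on chromosomes 1 to 19 or X, and the main set kept the peaks that had exactly 1 partner in each direction. This gave 113727 one-to-one pairs out of 125774 overlapping pairs, from 149855 Mta2 and 134248 Mbd3 peaks. Merged with the 124616 Zbtb7a peaks of the same study, the lists covered 164813 regions. For each pair the distance between summits, the widths and the ranks of the peaks' fold enrichment were compared. Fold enrichment is the ratio of signal over background at the summit as the authors' peak caller gave it, and it was used only for ranks within a list. A rank is given as a percentile from 0 for the weakest to 100 for the strongest of the paired peaks of that factor, so both rankings have equal length.

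Chromatin immunoprecipitation with sequencing had been run on kidney cortex of mice aged 2 months with the genotype Mta2flx/flx, an allele with loxP sites, and no Cre driver is named for these samples. The 4 groups were antibodies against Mta2, Mbd3 and the zinc finger factor Zbtb7a, and Input chromatin, with 2 libraries each. Tissue was crosslinked with 2 mM DSG and then 1% formaldehyde, chromatin was sheared to between 100 and 1000 bp, and the stated depth was 100 M paired-end reads a library. Each deposited peak list stands for both replicates of its factor, so no value below has a spread over mice, and the lists can differ in antibody and depth.

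NuRD joins nucleosome remodelling by a Chd ATPase to histone deacetylation by Hdac1 and Hdac2. Mta proteins form the scaffold that holds the deacetylases and the histone-binding proteins Rbbp4 and Rbbp7, while Mbd2 or Mbd3, which exclude one another, connect this core to Gatad2a or Gatad2b and the remodelling ATPase. Mbd2 binds methylated CpG, whereas mammalian Mbd3 has largely lost that preference, and NuRD sits at active promoters and enhancers as well as at silent genes.

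The promoters of the genes at which the subunits ranked most differently are shown first, because their base composition is compared further on. Sequences are those of RefSeq (GRCm38.p6, coordinates as in mm10) and run 5′ to 3′ on the gene's strand from 250 bases before to 50 bases after the annotated start. CpG dinucleotides are in capitals. The promoters of Lrrc3b (chr14:15438938-15439237, minus strand), Spock1 (chr13:57908283-57908582, minus strand) and Ripply2 (chr9:87015287-87015586, plus strand) held pairs with the largest differences towards Mta2, and those of H2bc8 (chr13:23571150-23571449, plus strand), H2bc23 (chr13:21810150-21810449, minus strand) and H4c17 (chr13:21811496-21811795, plus strand) the largest towards Mbd3. Fanci (chr7:79392088-79392387, plus strand) was the largest towards Mbd3 outside the histone genes.
Lrrc3b: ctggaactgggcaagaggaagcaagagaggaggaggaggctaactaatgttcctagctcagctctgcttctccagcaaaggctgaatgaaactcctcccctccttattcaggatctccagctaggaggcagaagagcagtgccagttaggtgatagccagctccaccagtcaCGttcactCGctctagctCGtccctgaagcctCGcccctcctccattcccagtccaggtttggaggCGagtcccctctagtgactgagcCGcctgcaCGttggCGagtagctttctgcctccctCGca
Spock1: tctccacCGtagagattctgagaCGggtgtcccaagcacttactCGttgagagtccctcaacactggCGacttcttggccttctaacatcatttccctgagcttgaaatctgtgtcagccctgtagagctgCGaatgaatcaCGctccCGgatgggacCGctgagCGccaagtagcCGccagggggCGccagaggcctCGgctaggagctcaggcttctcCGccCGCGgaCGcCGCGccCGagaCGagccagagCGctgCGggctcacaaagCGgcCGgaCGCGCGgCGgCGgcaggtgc
Ripply2: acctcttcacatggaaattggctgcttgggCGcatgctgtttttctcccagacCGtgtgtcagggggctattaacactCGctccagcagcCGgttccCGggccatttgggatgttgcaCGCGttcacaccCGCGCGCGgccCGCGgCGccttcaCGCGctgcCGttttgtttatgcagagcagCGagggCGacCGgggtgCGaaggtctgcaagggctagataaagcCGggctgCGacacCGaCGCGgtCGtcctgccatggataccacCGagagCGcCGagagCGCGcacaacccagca
H2bc8: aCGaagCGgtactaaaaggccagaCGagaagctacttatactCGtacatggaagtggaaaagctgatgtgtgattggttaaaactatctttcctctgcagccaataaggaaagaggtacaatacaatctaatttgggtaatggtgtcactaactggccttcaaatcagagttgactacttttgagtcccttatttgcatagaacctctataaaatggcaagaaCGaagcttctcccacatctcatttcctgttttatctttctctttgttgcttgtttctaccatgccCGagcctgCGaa
H2bc23: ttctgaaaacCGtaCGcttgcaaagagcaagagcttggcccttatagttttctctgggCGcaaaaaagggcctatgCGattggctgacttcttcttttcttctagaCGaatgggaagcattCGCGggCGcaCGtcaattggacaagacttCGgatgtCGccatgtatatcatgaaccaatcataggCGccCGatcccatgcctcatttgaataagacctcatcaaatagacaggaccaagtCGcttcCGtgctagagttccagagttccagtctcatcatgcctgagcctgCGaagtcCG
H4c17: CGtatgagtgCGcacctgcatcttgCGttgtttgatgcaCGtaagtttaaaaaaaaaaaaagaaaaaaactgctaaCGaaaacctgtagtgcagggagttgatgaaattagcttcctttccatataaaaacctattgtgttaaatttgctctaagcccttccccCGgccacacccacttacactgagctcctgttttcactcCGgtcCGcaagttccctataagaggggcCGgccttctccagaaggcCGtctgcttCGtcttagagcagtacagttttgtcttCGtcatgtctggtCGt
Fanci: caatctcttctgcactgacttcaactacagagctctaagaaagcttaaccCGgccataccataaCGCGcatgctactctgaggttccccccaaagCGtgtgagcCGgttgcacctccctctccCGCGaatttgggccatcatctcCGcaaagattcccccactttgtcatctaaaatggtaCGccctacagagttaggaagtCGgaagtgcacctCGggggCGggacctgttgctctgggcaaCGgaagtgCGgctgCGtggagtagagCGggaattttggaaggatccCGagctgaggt

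3 further promoters show a gene of the kidney's vessels, a gene of its tubules and a gene with equal ranks. Emcn (chr3:137340828-137341127, plus strand) encodes endomucin, an endothelial surface protein. Cldn16 (chr16:26462885-26463184, plus strand) encodes a claudin of the thick ascending limb. Mindy2 (chr9:70657125-70657424, minus strand) encodes a deubiquitinase and was among the strongest pairs of both lists.
Emcn: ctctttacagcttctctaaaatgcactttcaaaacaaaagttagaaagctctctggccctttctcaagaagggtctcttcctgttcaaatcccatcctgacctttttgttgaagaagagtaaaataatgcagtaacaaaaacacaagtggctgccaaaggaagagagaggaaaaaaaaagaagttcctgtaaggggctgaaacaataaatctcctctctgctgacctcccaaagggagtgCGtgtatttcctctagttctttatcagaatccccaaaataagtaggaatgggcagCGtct
Cldn16: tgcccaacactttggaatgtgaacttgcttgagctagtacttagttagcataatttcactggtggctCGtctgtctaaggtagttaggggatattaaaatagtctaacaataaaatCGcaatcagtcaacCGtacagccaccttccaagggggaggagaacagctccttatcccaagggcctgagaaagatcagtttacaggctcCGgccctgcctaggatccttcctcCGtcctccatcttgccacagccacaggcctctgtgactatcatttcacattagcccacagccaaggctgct
Mindy2: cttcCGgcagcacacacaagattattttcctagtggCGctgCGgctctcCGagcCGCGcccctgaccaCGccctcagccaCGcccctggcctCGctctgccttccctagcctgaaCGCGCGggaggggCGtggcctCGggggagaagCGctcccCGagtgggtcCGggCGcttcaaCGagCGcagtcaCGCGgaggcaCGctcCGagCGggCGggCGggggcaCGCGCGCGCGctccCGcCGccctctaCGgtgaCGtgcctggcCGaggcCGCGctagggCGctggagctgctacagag

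Of the Mta2 peaks, 80.5% (exact Clopper-Pearson 95% interval 80.3 to 80.7%) overlapped a Mbd3 peak, and 92.8% (92.7 to 93.0%) of the Mbd3 peaks overlapped a Mta2 peak. These intervals, and those further on, cover counting error only. Peaks without a partner were weak and narrow. The 29271 unpaired Mta2 peaks had a median fold of 2.98 and a median width of 244 bp, and the 9624 unpaired Mbd3 peaks a median fold of 2.72 and a width of 215 bp. Mta2 peaks that had exactly 1 partner had a median fold of 6.39.

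Wide peaks broke up differently in the lists. A single Mta2 peak spanned at least 2 Mbd3 peaks in 4778 cases, and a single Mbd3 peak spanned at least 2 Mta2 peaks in 1124. The Mta2 peaks with the most partners covered 5 Mbd3 peaks each, at Hgd, the homogentisate dioxygenase of tyrosine breakdown (chr16:37579669-37585373), and at Xpnpep1, an aminopeptidase (chr19:53027961-53034079). The Mbd3 peaks with the most partners covered 4 Mta2 peaks each, at Pax2, a transcription factor of kidney development (chr19:44746193-44754297), and at Pdzk1, a scaffold of the proximal tubule's brush border (chr3:96834599-96837129).

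Summits of paired peaks nearly coincided. The median distance was 23 bp, with quartiles of 10 and 45 bp, and 92.9% of pairs had their summits within 100 bp of each other. The signed distance had a median of 0 bp. The distance shortened with strength: it had a median of 44 bp in the lowest decile of pairs by mean percentile and 14 bp in the highest.

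A small tail of 713 pairs (0.627%) had summits more than 500 bp apart. Among pairs at or above the 50th percentile in both lists, the 5 longest distances lay on broad domains at which both lists held nearly the same interval. At the mineralocorticoid receptor gene Nr3c2 the summits were 3029 bp apart within intervals of 4141 bp for Mta2 and 4315 bp for Mbd3 (chr8:76898571-76902711 for Mta2), and the ranks were 93.6 and 95.3. At Ext1, a heparan sulphate polymerase, they were 2792 bp apart, with ranks of 86.5 and 92.5. The others were a domain 105675 bp from Haao with a distance of 4290 bp, Tchh with 2881 bp and Bcl7a, a subunit of BAF remodellers, with 2628 bp.

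Mta2 peaks were the wider member in 74.0% of pairs. Median widths were 513 bp for Mta2 and 439 bp for Mbd3, the median ratio was 1.12, and the median difference was 59 bp. In 50.6% of pairs the Mbd3 interval lay wholly inside the Mta2 interval, and in 10.8% the reverse held. The ratio was highest, at 1.20, in decile 3 by strength and fell to 1.06 in decile 10, where medians were 1170 and 1082 bp.

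Among pairs at or above the 50th percentile in both lists, the largest ratios towards Mta2 were at Ptprn2, a receptor-type phosphatase gene, with 2917 bp against 409 bp, and at Il6ra, the interleukin-6 receptor alpha chain, with 1232 bp against 280 bp. Cdc42ep1 had a ratio of 3.83 and a pair 33550 bp from Smurf2 one of 3.56. Towards Mbd3 the largest was at Plod2, a collagen lysyl hydroxylase, with 300 bp for Mta2 against 954 bp for Mbd3, although its Mta2 rank was higher by 5.62 points. Pairs near Mreg, in Ppp2r2b and near Gpat3 followed, with Mbd3 peaks 2.67, 2.65 and 2.39 times as wide.

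**Figure D1:**
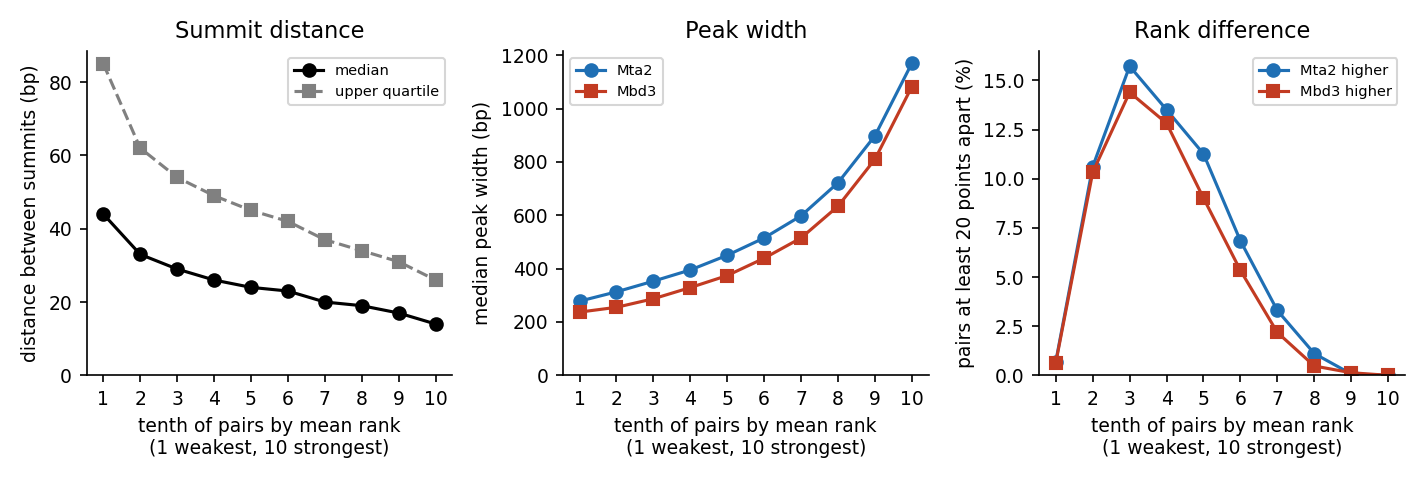
Pairs in deciles by mean percentile (x axis, 1 weakest to 10 strongest): median and upper quartile of the summit distance in bp (left), median peak width in bp for Mta2 and Mbd3 (middle), and percent of pairs at least 20 percentile points apart in each direction (right). Summit distance fell from a median of 44 to 14 bp, widths rose to 1170 and 1082 bp, and the largest shares of pairs that differed in rank, 15.7% and 14.4%, were in decile 3.

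The subunits ranked the shared regions in nearly the same order. Over the 113727 pairs the percentiles had a Spearman correlation of 0.906, given as a description since the pairs share libraries and a peak caller, and the median absolute difference was 6.64 points. Of the 1000 strongest pairs of each list, 729 were the same. The strongest regions of both lists included pairs at an end of Mindy2 and of E2f5, a transcription factor of the cell cycle, inside Tpcn2 and Anks3 and 8421 bp from Tob2, with folds between 79.5 and 97.9 and summits at most 34 bp apart.

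A difference of at least 20 percentile points was taken as a difference in rank. Mta2 ranked higher by that much at 7178 pairs (6.31%) and Mbd3 at 6291 (5.53%), and the differences ran from -72.9 (Mbd3 higher) to 60.9 points (Mta2 higher). The pairs nearest to the threshold lay at 20.0007 points inside it and 19.9998 outside. Decile 10 by mean percentile held none and decile 9 held 8 and 15. A mean near either end of the scale limits the difference, but decile 1 held 79 and 73 and decile 2 held 1207 and 1174. What lies behind the smaller counts at strong pairs was not tested. When percentiles were taken within the whole lists, which counts the weak unpaired peaks and shifts the median difference of all pairs from -0.34 to 2.53 points, the split was 12619 towards Mta2 and 2889 towards Mbd3.

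**Figure D2:**
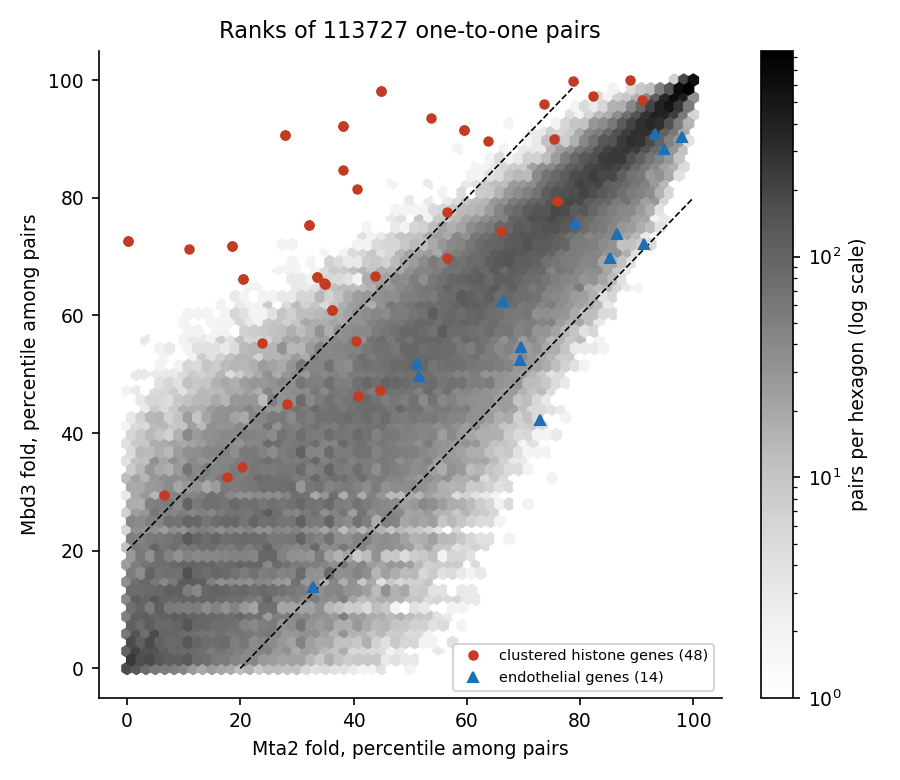
Percentile of the Mta2 fold (x axis) against that of the Mbd3 fold (y axis) for 113727 pairs, as hexagons shaded by the number of pairs on a log scale, with dashed lines at 20 points of difference. Red points are pairs at 48 clustered histone genes, all above the diagonal, and blue triangles are pairs at 14 endothelial genes, 13 of them below it.

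Mta2 and Mbd3 were closer to each other than either was to Zbtb7a, by summit and by rank. One-to-one pairs of Mta2 and Zbtb7a numbered 100833, with a median summit distance of 26 bp and a rank correlation of 0.843, and 19.7% of them differed by at least 20 points. For the 101469 pairs of Mbd3 and Zbtb7a the values were 26 bp, 0.878 and 15.6%, against 11.8% for Mta2 and Mbd3. Of the 1000 strongest, 462 and 463 were the same as Zbtb7a's for Mta2 and Mbd3. These sets share peaks, and no test over mice was possible.

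A pair was assigned to a gene when both its summits lay within 1 kb of the same end of one of 21631 protein-coding genes. A pair lay at an end of 12792 genes. At those ends Mta2 ranked at least 20 points higher for 316 genes (2.47%) and Mbd3 for 226 (1.77%). Within whole lists the split was 507 to 104. By position of the Mta2 summit alone, 3.15% of pairs at gene ends were towards Mta2 and 2.56% towards Mbd3. Of pairs outside genes 7.40 and 5.61% were. Pairs at gene ends were stronger, and in quintile 2 by mean percentile gene ends held 5.51% of the pairs with Mta2 ranked higher, 4.94% of those with Mbd3 ranked higher and 5.06% of those within 20 points.

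The 12 genes at whose ends Mta2 ranked farthest above Mbd3 had weak Mbd3 peaks, none with a fold above 4.02. Lrrc3b, which encodes a leucine-rich repeat membrane protein, had a Mta2 fold of 9.07 and a Mbd3 fold of 3.02, or the percentiles 65.4 and 13.8 (chr14:15438319-15439274 for Mta2). Spock1, a secreted proteoglycan, had folds of 8.90 and 3.02 (chr13:57908087-57908510), and Ripply2, a co-repressor of somite segmentation, folds of 7.09 and 2.62 (chr9:87015290-87016018). The Mbd3 peak at each of these lay at or below percentile 13.8, and its summit lay within 66 bp of that of Mta2. At the Spock1 and Ripply2 promoters printed above no Zbtb7a peak overlapped the pair.

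Others of that group were the receptor phosphatase Ptprt (48.0 points), the mesendoderm homeobox gene Mixl1 (48.0), the brain proline transporter Slc6a7 (47.3), the stathmin Stmn3 (47.0) and Tmem121 (45.4). They went on with the forkhead factor Foxp2 (43.8), the skeletal homeobox gene Nkx3-2 (42.9), the endoplasmic reticulum protein Reep1 (42.3) and the neuronal adhesion protein Mdga2 (42.1). In all 12 the Mta2 peak was the wider one, and at Mdga2 the summits were 732 bp apart. The value at Stmn3 rests on the choice of the pair: a different pair at the same gene gave -5.23 points with a window of 0.5 kb. Nkx3-2 had 8.37 points when ranked by −log10 q, and Ripply2, Reep1 and Slc6a7 had 4.48, 4.54 and 13.9 with a window of 3 kb.

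The genes at which Mbd3 ranked highest over Mta2 were led by clustered histone genes, which code for the histones made in S phase. These were grouped after their values were seen, by symbol, 65 genes in all. A pair lay at an end of 48 of them, on 36 distinct pairs, since neighbouring H2A and H2B genes share a promoter. Mbd3 ranked higher at all 48, by at least 20 points at 34, with a median difference of -30.6 points against -0.15 over all genes with a pair. Ranked by −log10 q, or within whole lists, 2 of the 48 turned towards Mta2. Without the histone genes 192 of 12744 genes (1.51%) were at least 20 points towards Mbd3.

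The shared H2bc8 and H2ac8 promoter had a Mta2 fold of 2.01, near the bottom of its list at percentile 0.180, and a Mbd3 fold of 9.37 at percentile 72.6 (chr13:23570690-23571706 for Mta2). H2bc23 and H2ac23 had folds of 4.32 and 18.5 (chr13:21809561-21810860), and H2bc4 and H2ac6 folds of 5.82 and 32.2 (chr13:23683513-23686193), though with a window of 3 kb H2bc4 stood at -2.10 points. At H4c17 the folds were 3.16 and 9.04. The Mbd3 peaks at these genes thus lay in the upper part of their list. H2ac18 and H2ac19 on chromosome 3, with Mbd3 folds of 69.0 and 53.9, ranked among the strongest Mbd3 peaks. Their Mta2 peaks, with folds of 18.8 and 13.3, were strong too, at percentiles 88.8 and 78.8. The differences there were -11.2 and -21.1 points.

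The histone types differed in size of the difference. The 27 H2A and H2B genes had a median of -33.0 points with 22 past 20, the 9 H4 genes -31.6 with 8, the 9 H3 genes -13.8 with 3, and the linker histone genes H1f2 and H1f4 -14.6 and -15.0. H4bc24, named so in the annotation, shared a pair with H2ac24 at -53.9. H3c10 and H2ac12 had the smallest differences, at -2.61 and -3.44. Histone genes are near-identical copies, so the authors' read placement among them is uncertain. They lie in clusters, 42 of the 48 on chromosome 13, 5 on chromosome 3 and 1 on chromosome 11, and are not independent of each other.

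Zbtb7a peaks overlapped 33 of the 36 histone pairs. Their median percentile within the whole Zbtb7a list was 24.1, with a range from 0.20 at H2ac10 to 91.1 at H3c14. Within their own whole lists the Mta2 peaks had a median of 51.1 and the Mbd3 peaks 74.7. In 30 of the 33 the Zbtb7a percentile was nearer to that of Mta2. The genes were grouped with Mta2 known to be the lower of the NuRD subunits. A low Zbtb7a percentile is then nearer to Mta2, so this count adds nothing to the medians. Summits were 349 bp apart at 3 of the pairs. At the H2bc8 start, in the sequence above, the Mta2 summit lay 234 bp downstream and the Mbd3 summit 115 bp upstream of the start, and at H4c17 267 bp downstream and 82 bp upstream. Peak widths at the histone genes were about equal, with a median ratio of 0.974.

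**Figure D3:**
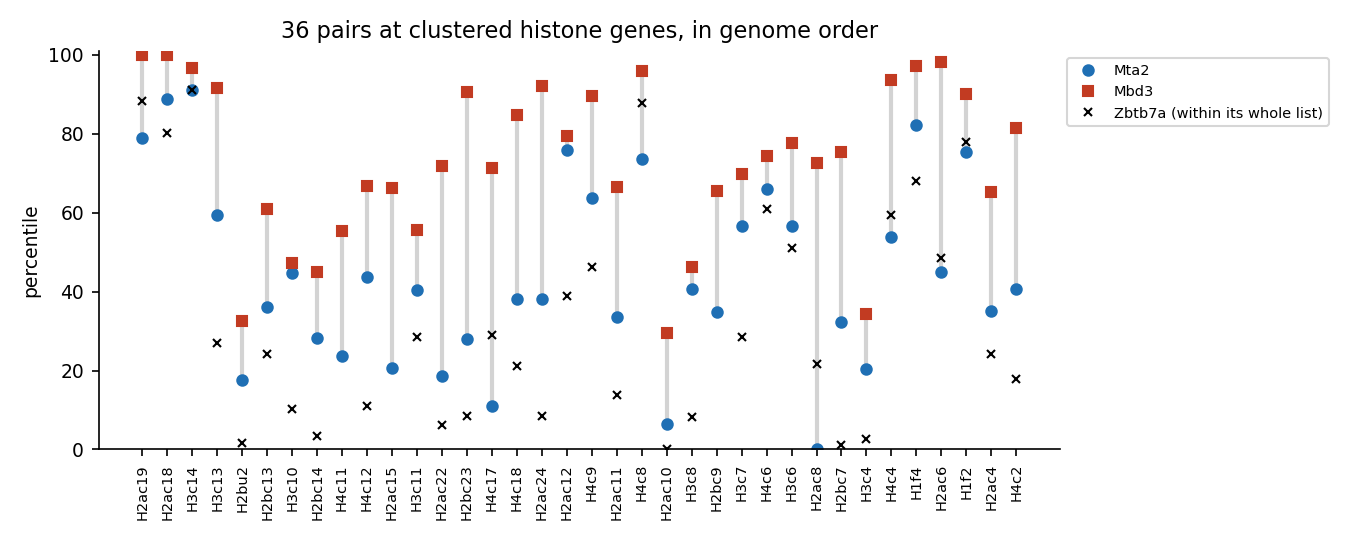
Percentiles (y axis, 0 to 100) of the Mta2 fold (circles) and the Mbd3 fold (squares) among pairs, and of the Zbtb7a fold within its whole list (crosses), for 36 pairs at clustered histone genes in genome order (x axis, 1 gene named per pair). The Mbd3 square lies above the Mta2 circle in all 36, and at H2ac8 the values are 72.6 and 0.180.

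Outside the histone genes the largest difference towards Mbd3 at a gene end was at the start of Fanci, a gene of the Fanconi anaemia pathway of crosslink repair, which lies beside Rlbp1, a retinaldehyde-binding protein gene. Its Mta2 fold was 5.56 and its Mbd3 fold 28.3, percentiles 42.7 and 97.1 (chr7:79391684-79392490 for Mta2). The Mta2 summit was 17 bp and the Mbd3 summit 312 bp upstream of the Fanci start. Mkrn3, an imprinted gene for a ubiquitin ligase, followed among the listed genes with folds of 6.07 and 13.7, or -36.3 points.

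Away from gene ends, a pair 18355 bp from Ift81, a gene of ciliary transport, stood at -70.7 points, with a Mta2 fold of 2.62 and a Mbd3 fold of 9.95 (chr5:122521623-122522428 for Mta2). Its summits were 16 bp apart. A pair inside Pank4 stood at -61.4. Near Rdx, the radixin gene, a Mta2 peak of 282 bp overlapped a Mbd3 peak of 1884 bp, at -59.9.

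Towards Mta2 the largest difference anywhere was 12061 bp from Bdkrb2, a bradykinin receptor gene, with folds of 9.39 and 2.62 (chr12:105550942-105551328). Pairs inside Fam13b (59.3 points), near Ccnjl (57.8), inside the annexin gene Anxa6 (57.0) and inside Reep1, 29995 bp from its nearest end (55.1), came next. Plekho2 at 54.8, Skap1, a T cell adaptor gene, at 54.5 and a pair near Gtsf1l at 54.3 completed the 8. All 8 had Mbd3 folds of at most 3.13, and Mta2 was the wider peak in each.

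Differences over whole genes were smaller. Of 4463 genes with at least 5 pairs in the gene or within 1 kb, 11 (0.246%) had a median of at least 20 points towards Mta2 and 7 (0.157%) towards Mbd3. At Vipr1, a receptor for vasoactive intestinal peptide, all 5 pairs were towards Mta2 with a median of 25.5 points. Adam19, a metalloprotease, had 12 of 13 pairs that way with a median of 22.9, and Dchs1, a protocadherin of planar polarity, 7 of 8 with 22.1.

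Rgs5, a marker of pericytes, had all 5 pairs towards Mta2 (median 21.2 points), Eya2, a developmental phosphatase, all 7 (20.8), and Egflam, a matrix protein, all 6 (20.1). Cdc20b, Tmod3, Jam3 and Ptpru had medians between 20.1 and 21.7. Towards Mbd3, the potassium channel gene Kcnh7 had all 7 pairs (-22.2), Fam110b 9 of 11 (-20.3) and Irs1, the insulin receptor substrate, 4 of 6 (-19.6). Arrdc1, 4933427D14Rik, P2ry2 and Itgae had medians between -22.8 and -19.7.

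The genes of NuRD itself carried both subunits at similar rank. Of 15 subunit genes 14 had a pair at an end, none past 20 points, and the median difference was 1.13. The Mta2 gene had folds of 21.3 for Mta2 and 17.2 for Mbd3, and the Mbd3 gene 14.4 and 11.995. Among the scaffolds Mta1 and Mta3 differed by -1.87 and -0.81 points. The ATPase genes Chd3, Chd5 and Chd4 stood at 11.2, 6.56 and 3.78.

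The deacetylase gene Hdac2 had the lowest value, -6.47, and Gatad2b, the linker between core and ATPase, -6.27. Gatad2a was at -1.61, Mbd2 at 3.48, Cdk2ap1 at 2.41, and the histone-binding Rbbp4 and Rbbp7 at 0.28 and 1.08, the last pair among the strongest of the family with percentiles above 95. Hdac1 had no one-to-one pair at an end. Of 18 zinc finger genes that recruit NuRD, 9 had a pair. Sall4, a factor of stem cells and limb development, was the only one past 20 points, at 29.7, beside a background of 2.47%. Past 20 towards Mta2 were 2 of 12 with all overlapping pairs and 3 of 16 with a window of 3 kb.

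Gene lists for the cell types of the kidney fell to different sides. Endothelial genes had a pair at 14 of 16, of which 13 were towards Mta2, with a median of 10.2 points; 1 was past 20, beside a background of 2.47%. Over all 12792 genes with a pair, 6182 were towards Mta2 and the median was -0.15. For the fold of either list in bulk cortex, fewer cells of a type and less binding per cell cannot be told apart. What lies behind the differences between the lists was not tested. No test over mice was possible for any list, and the counts and medians are descriptions.

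Nos3, the endothelial nitric oxide synthase, had folds of 11.2 for Mta2 and 4.63 for Mbd3, a difference of 30.7 points that was -0.58 when pairs that are not one-to-one were admitted. At the Emcn promoter above, Mta2 had a fold of 21.0 and Mbd3 9.26 (19.0 points). The transcription factor genes Sox17 and Sox18 stood at 19.0 and 16.9, Flt1, a receptor for VEGF, at 15.5, Cdh5, the cadherin of endothelial junctions, at 15.0 and Tie1 at 12.7. Kdr, the main VEGF receptor, was strong in both lists, with percentiles of 98.0 and 90.3, and Pecam1 was the exception at -0.63.

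Stromal and smooth muscle genes were also towards Mta2, 8 of 9 with a median of 7.57 points and none past 20. Pdgfrb, the receptor of pericytes and fibroblasts, stood at 18.4, the collagen genes Col1a2 and Col1a1 at 17.2 and 7.57, Itga8 at 17.1 and Des, the desmin gene, at 13.3. Of 16 genes of fibrosis and TGF-beta signalling, 12 were towards Mta2 with a median of 4.003. Col3a1 led them with folds of 6.26 and 3.03 (34.1 points), and Tgfb1 had 14.5.

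Podocyte genes were towards Mta2 at 13 of 15, with a median of 5.65 points. Past 20 were 2 of the 15, beside a background of 2.47%. That median was 3.74 with all overlapping pairs, 4.13 with reciprocal overlap and 7.25 with a window of 0.5 kb. Thsd7a, an antigen of membranous nephropathy, had folds of 8.06 and 3.56 (35.2 points), Tjp1, the tight junction protein at the slit diaphragm, was also past 20, and Kirrel, a slit diaphragm protein, and Podxl had 18.6 and 17.3. The list of FSGS and nephrotic syndrome genes, which shares members with this one, had a median of 0.47, with 17 of 30 towards Mta2.

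Of 16 nephron progenitor genes 11 were towards Mta2, with a median of 9.33 points. That median was 4.28 with all overlapping pairs, 4.32 with reciprocal overlap, where 9 of 16 were towards Mta2, 5.42 with a window of 3 kb and 13.8 with 0.5 kb. Hoxa11, needed for kidney outgrowth, had 28.2, which was -3.90 with a window of 3 kb, and Osr1, an early kidney factor, 20.2, whereas Hoxc11 had -25.2. Wnt4, which drives nephron formation, had folds of 18.7 and 10.1 (13.8 points) and Lhx1 had -2.98.

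Tubule genes lay towards Mbd3. Of 16 genes of the loop of Henle and distal nephron with a pair, 14 were towards Mbd3, with a median of -6.67 points and none past 20. Cldn10 had -19.7, which was -3.20 with all overlapping pairs and -1.80 with a reciprocal overlap of 50%, where the gene took a different Mta2 peak. Cldn16, printed above, had folds of 5.89 and 7.25 (-18.0), Slc12a1, the cotransporter of the thick ascending limb, 6.21 and 7.65 (-17.2), and Egf -14.5. A further RefSeq start of Egf had a pair on the other side, at percentiles of 75.3 for Mta2 and 53.9 for Mbd3 (21.5 points). At RefSeq starts of the distal nephron genes Slc12a3, Klhl3 and Trpm6, pairs stood at -31.3, -29.6 and -24.2 points. These values and that of the further Egf start were picked from promoters past 20 points, where smaller differences could not appear. Of all 12165 promoters with a pair, 1.38% were past 20 towards Mbd3 and 2.21% towards Mta2. Among the 16 listed genes Stk39 and Enox1 were the exceptions at 1.06 and 16.5. Within whole lists the median was -1.20, beside 1.14 over all genes, and 5 of 16 were towards Mta2.

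Genes of the proximal tubule, whose cells are the most abundant of the cortex, had strong pairs, with median percentiles of 87.3 for Mta2 and 91.5 for Mbd3, beside 82.3 and 83.3 over all genes. Of 24 with a pair 19 were towards Mbd3, with a median of -1.11 points. Amn had -14.2, Gatm, the first enzyme of creatine synthesis, -9.75, the urate transporter Slc22a12 -9.74 and the phosphate transporters Slc34a1 and Slc34a3 -7.21 and -6.10. Pck1, a gene of gluconeogenesis, was near the top of both lists with folds of 67.4 and 74.8. Slc22a6, an organic anion transporter, went the other way at 24.7, a value that was -0.087 when pairs that are not one-to-one were admitted.

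Counted over every pair in or within 1 kb of a gene, an alternative chosen after seeing the data, the medians of the proximal tubule, loop, endothelial, stromal, podocyte and nephron progenitor lists had the same sign, and that of the FSGS and nephrotic syndrome list turned to -0.06. For proximal tubule genes the median of gene medians was -4.12 points with 28 of 32 genes towards Mbd3, and for loop and distal genes -7.13 with 17 of 20. For endothelial genes it was 7.60 with 14 of 16 towards Mta2, and for stromal genes 5.66 with 12 of 14. For podocyte genes it was 2.39, with 16 of 24, and for nephron progenitor genes 2.53, with 15 of 23. Over all 16037 genes it was -0.74, with 6934 towards Mta2.

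**Figure D4:**
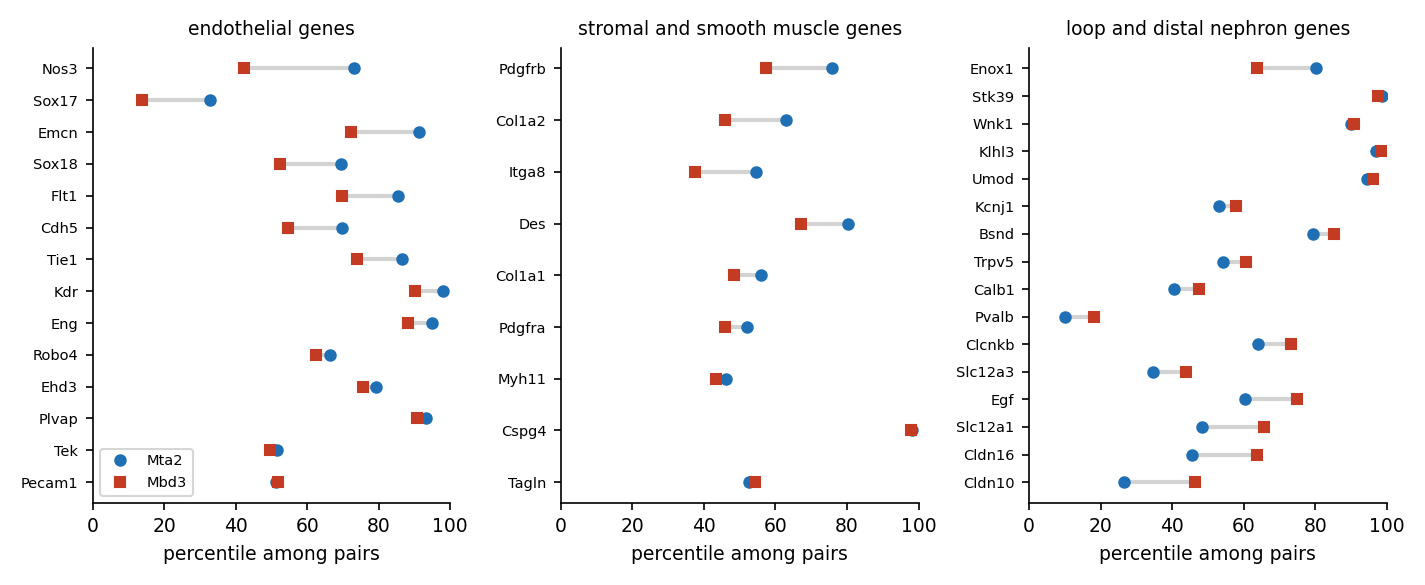
Percentiles among pairs (x axis) of the Mta2 fold (circles) and the Mbd3 fold (squares) at gene ends of 14 endothelial, 9 stromal and 16 loop and distal nephron genes, ordered by the difference. The circle lies to the right at 13 and 8 of the first lists and the square at 14 of the last.

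Collecting duct genes had a median of -2.19 points, with 9 of 13 towards Mbd3. Past 20 towards Mbd3 were 2 of the 13, beside a background of 1.77%. Scnn1b had -22.1, with weak peaks at percentiles 6.32 and 28.4, and Grhl2, an epithelial transcription factor, -21.6. The other way went 4 of the 13, led by Slc26a4 at 17.0, with stronger peaks at percentiles 78.6 and 61.6. Within whole lists that median was -0.44, with 0 past 20 towards Mbd3 and 1 towards Mta2. Immune genes had a median of -4.83 on 7 genes, with 6 towards Mbd3, but 1.63 within whole lists. Ribosomal protein genes had -3.10 with 20 of 29 towards Mbd3, and genes of the TCA cycle and oxidative phosphorylation -1.58 with 19 of 28, which turned to 0.12 within whole lists. Hepatocyte genes, from a tissue outside the sample, had a pair at 8 of 20 and a median of 0.11.

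Polycomb, DNA methylation and other deacetylase complex genes had medians between -0.47 and 0.01. Hox cluster genes had a median of -0.65 but a wide spread, from -25.3 at Hoxc9 to 28.2 at Hoxa11, the gene that changed side with a window of 3 kb. Members past 20 points in lists near the background included Tpi1, a glycolytic enzyme, at 35.3 and Phf19, a Polycomb cofactor, at 20.6 towards Mta2. Gadd45b at -24.9, Jun at -23.2 and Piwil2 at -20.2 were towards Mbd3. Tpi1 stood at -2.60 when pairs that are not one-to-one were admitted, and Gadd45b, Jun and Piwil2 at 3.68, -2.63 and -0.70 with a window of 3 kb.

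**Figure D5:**
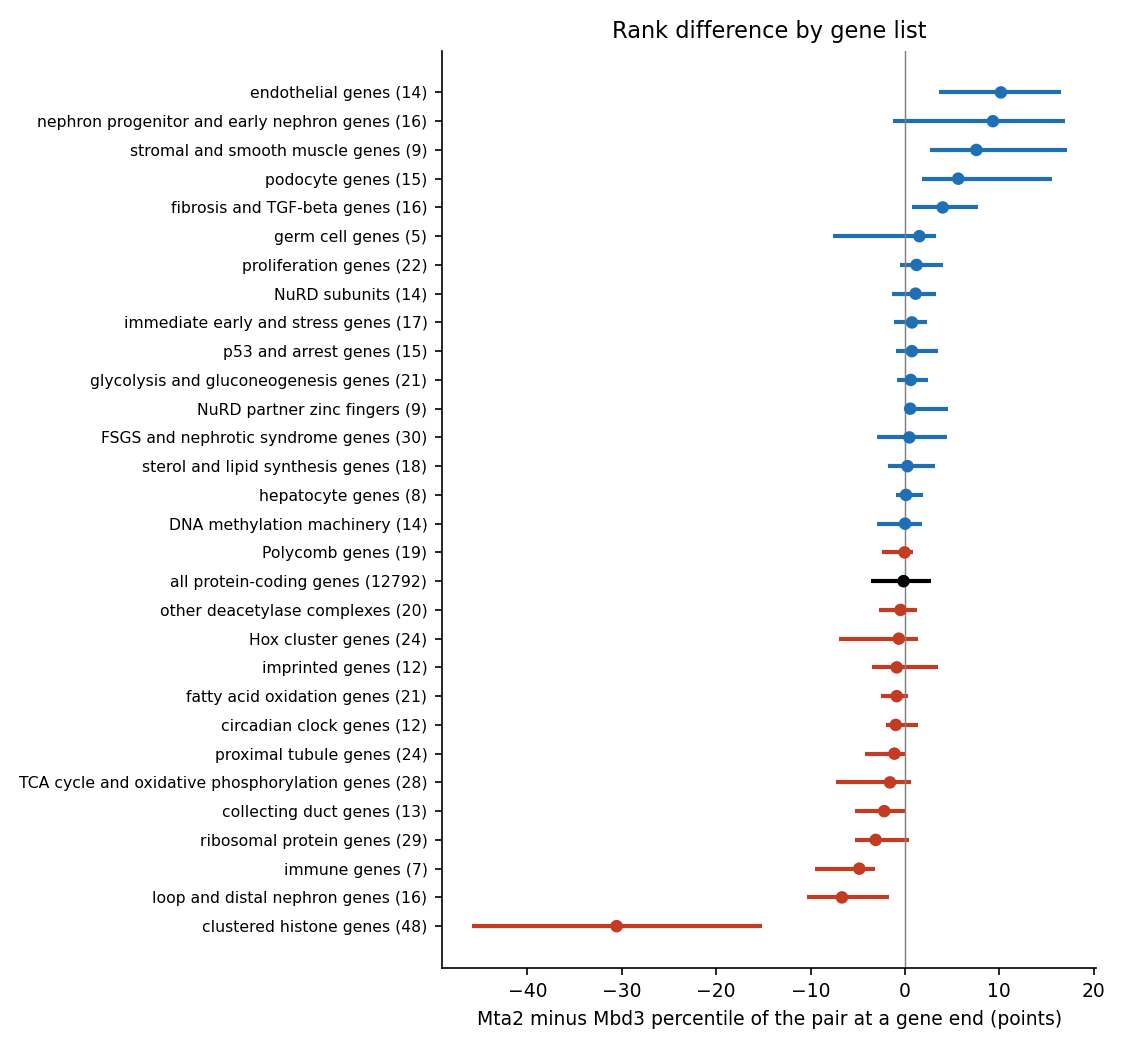
Median (point) and quartiles (line) of the Mta2 minus Mbd3 percentile at gene ends (x axis, points) for 28 gene lists, clustered histone genes and all protein-coding genes (black), with the number of genes that had a pair in brackets. Endothelial genes lie at 10.2 and loop and distal nephron genes at -6.67, and the histone genes stand apart at -30.6.

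Pairs that differed in rank also differed in width and in their overlap with Zbtb7a. The Mta2 peak was the wider one in 96.6% of pairs with Mta2 ranked higher and in 33.9% of those with Mbd3 ranked higher, against 74.9% of pairs within 20 points; width and fold come from the same signal. A Zbtb7a peak overlapped 65.7% (64.5 to 66.8%) of the pairs with Mta2 ranked higher and 83.8% (82.8 to 84.7%) of those with Mbd3 ranked higher. In quintile 2 of pairs by mean percentile, where both kinds had a mean of 29.1, the shares were 59.3 and 82.9%, against 77.6% for pairs within 20 points.

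In 91675 regions all 3 lists had a one-to-one peak. Where Mta2 ranked higher than Mbd3, the Zbtb7a rank was nearer to that of Mbd3 in 70.7% (69.5 to 72.0%) of 5166 regions, with median percentiles of 50.1 for Mta2, 21.9 for Mbd3 and 27.0 for Zbtb7a. Where Mbd3 ranked higher, the Zbtb7a rank was nearer to Mbd3 in 52.3% (50.8 to 53.8%) of 4299, with medians of 20.02, 47.1 and 36.4. Over all regions 54.7% were nearer to Mbd3.

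Promoters with a pair were compared by base composition, using the 12165 RefSeq promoters that had a Mta2 summit within 1 kb of the start. Mta2 ranked at least 20 points higher at 269 (2.21%) and Mbd3 at 168 (1.38%). Over all strengths both kinds had fewer CpG than promoters within 20 points. The observed over expected CpG, the count of CpG times the length over the product of C and G counts, had a median of 0.563 for Mta2 ranked higher, 0.449 for Mbd3 ranked higher and 0.755 within 20 points. Without the histone genes the second value was 0.373.

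Weaker promoters had fewer CpG whatever their difference, so promoters of quintiles 2 and 3 by mean percentile were set side by side. There the medians were 0.558 for Mta2 ranked higher (196 promoters), 0.396 for Mbd3 ranked higher (113) and 0.472 within 20 points (1292), and the GC contents 58.2, 52.3 and 55.3%. An observed over expected CpG of at least 0.6 was found in 44.4% (37.3 to 51.6%), 30.1% (21.8 to 39.4%) and 36.7% (34.1 to 39.4%). Without histone genes the Mbd3 share was 21.3% (13.5 to 30.9%), with a median of 0.365, beside 36.4% (33.8 to 39.1%) within 20 points. The mean percentiles of these promoters still differed, at 37.9, 38.1 and 46.7. By single quintile, with histone genes kept, the shares with a ratio of at least 0.6 were 42.6, 18.6 and 29.3% in quintile 2. They were 46.6, 42.6 and 40.0% in quintile 3, and 56.25, 62.5 and 66.3% in quintile 4, on 32, 32 and 2926 promoters. In quintile 4 the share for Mbd3 ranked higher was thus above that for Mta2 ranked higher. In the sequences above, Spock1 and Ripply2 had ratios of 0.944 and 1.06, H2bc8 had 0.556, Emcn 0.159 with 2 CpG, and Mindy2 1.00 with 40.

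Exact matches to 16 short motifs were counted on both strands. The GC box of SP and KLF factors, GGGCGGGG, was found in 23.8% of all 21045 promoters. In quintiles 2 and 3 it was in 21.9% (16.4 to 28.4%) of promoters with Mta2 ranked higher, 8.85% (4.33 to 15.7%) of those with Mbd3 ranked higher and 19.1% of those within 20 points. Among the printed sequences only that of Mindy2 held it. The ETS motif CCGGAAGT, in 5.198% of all promoters, was in 0.51% (1 of 196), 0% (0 of 113, upper limit 3.21%) and 3.10% of these quintile groups, in the same order. A match is a description of the letters and not a binding site.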

How the data were processed

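Per the submitters' processing notes, Bowtie2, MACS2, bedtools, deepTools and the mm10 build were used; no version or setting is given in the sources used here. The 3 peak lists have no header and the layout of narrowPeak. The authors deposited for each peak a fold, a ratio of signal over background at the summit, a −log10 q value and a summit offset. All peaks had a −log10 q of at least 1.3. Whether reads or peaks of the replicates were combined, and how Input entered, is not stated, and library depths were not analysed here.

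Overlaps, summit distances, widths and percentile ranks (ties averaged) were computed with Python 3.11.15, numpy 2.4.6, pandas 2.3.3 and scipy 1.17.1, and the pairing was tested on simulated peaks. Gene ends came from RefSeq (GRCm38.p6), and all 650 listed symbols in 28 lists matched. Genes named were the NuRD subunits, the 12 genes and 8 pairs per direction of largest difference (at gene ends, with the higher percentile at least 50), the 10 genes per direction by median over at least 5 pairs, the strongest, farthest and most unequal pairs, and the extreme members of each list; further list members are named as examples after their values were seen. A few genes picked by this rule are left out here. A gene with several pairs at its ends took the one with the highest mean percentile. The members and lists were chosen with earlier results of these data known. Motif searches need exact letters. Alternatives are in the closing section.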

Additional observations from a re-analysis of the deposited data

How the results depend on the processing

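No paired analysis was possible because 1 peak list stands for both replicates of each factor, and for the same reason no replicate could be left out. Autosomes alone changed no result beyond its counting error. With all overlapping pairs the median summit distance was 24 bp, 88.3% of summits lay within 100 bp, the width ratio was 1.14, Mta2 was wider in 74.8% and the correlation was 0.847. With a reciprocal overlap of 50%, 73.7% of Mta2 and 82.2% of Mbd3 peaks were paired, and these values were 22 bp, 93.3%, 1.11, 73.6% and 0.917; 3 lists, in place of 5, had a median at least 5 points from 0. With a −log10 q of at least 10 in both lists, 81.3% and 94.7% were paired and the values were 20 bp, 95.5%, 1.11, 75.6% and 0.901. Ranked by −log10 q the correlation was 0.912.

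A threshold of 10 points gave 20660 pairs towards Mta2 and 20033 towards Mbd3, with 1054 and 979 genes, and 30 points gave 1935 and 1469, with 107 and 72 genes. Percentiles within whole lists gave 12619 and 2889 pairs and 507 and 104 genes. Called genes that changed sign were Slc22a6 (-0.087), Nos3 (-0.58) and Tpi1 (-2.60) with all overlapping pairs, Stmn3 (-4.04) and Tpi1 (-0.82) with reciprocal overlap, and H2ac13 (0.87) ranked by −log10 q. Stmn3 (-5.23) did so with a window of 0.5 kb, and Slc22a6 (-1.74), Hoxa11 (-3.90) and Gadd45b (3.68) with 3 kb. In each of these cases the gene took a different Mta2 peak. Of 63 named genes past 20 points, 59 stayed past it with all overlapping pairs, 52 within whole lists, and 52 when ranked by −log10 q.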
